A study of Mus musculus with 12 samples.

Results

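The enzymes described here make fatty acids from citrate and join them into triglyceride. The set held 10 genes, named for their place in the pathway, with earlier results of these data known: Acly, Acaca, Acacb, Fasn, Elovl6, Scd1, Scd2, Scd3, Dgat1 and Dgat2. On the mouse array 25 probe sets of 45101 carried 1 of these symbols alone, 10 genes of 18194. For each gene the probe set with the highest mean over the 12 arrays is given first and called its leading probe set. Values are log2 expression values made by robust multi-array average (RMA), so a difference of 1 is a doubling.

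In fat cells, citrate that leaves the mitochondria is cleaved to acetyl-CoA by ATP citrate lyase (Acly). Acetyl-CoA carboxylases (Acaca, Acacb) turn it into malonyl-CoA, and fatty acid synthase (Fasn) builds palmitate from it. Elovl6 extends palmitate to stearate, the stearoyl-CoA desaturases (Scd1, Scd2, Scd3) place a double bond, and the acyltransferases Dgat1 and Dgat2 add the last fatty acid that makes triglyceride. The pathway is known to respond to insulin, and the transcription factor SREBP-1c is known to activate genes of it. Most of these genes rise when precursors become fat cells.

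Steroid receptor RNA activator (SRA) is an RNA that acts with nuclear receptors. ST2 cells, a mouse marrow stromal line listed with strain BC8, carried a retrovirus with a human SRA cDNA (ST2 SRA) or the empty vector (ST2 control) and were harvested on day 4 of differentiation. 3T3-L1 cells, a mouse preadipocyte line listed as Swiss albino, carried a retroviral hairpin against SRA (shSRA) or a control hairpin (shControl, which the sample titles call an empty vector) and were harvested on day 8. Every group had 3 arrays, labelled as biological replicates, and in all of them differentiation was started with the cocktail MDIT: insulin (0.167 µM), troglitazone (5 µM), dexamethasone (1 µM) and the phosphodiesterase inhibitor methylisobutylxanthine (0.5 mM). In all groups insulin was given again on day 2. A single hairpin was used, and infected ST2 cells were selected with puromycin with no cloning step described. Line, day and vector type cannot be told apart between the ST2 and 3T3-L1 arrays.

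Sra1, the gene that encodes SRA, read 11.67 to 11.86 in shControl and 9.20 to 9.62 in shSRA arrays, and fell by 2.36 on the log2 scale (SE 0.18, limma adjusted p = 5.58e-07). In the arrays labelled SRA it read 11.13 to 11.44 against 10.67 to 11.24 in ST2 control, a difference of 0.22 that did not pass (limma adjusted p = 0.484). The introduced RNA is human and the array is a mouse array. Whether this probe set reads it was not tested, so it does not check the overexpression label here. Of 12 measured adipocyte markers, Adipoq (adiponectin) had group means of 14.44 to 14.79 and Fabp4 (a fatty acid binding protein) 14.78 to 14.98, while Lep (leptin) had 4.48 to 4.64. ST2 control replicate 2 read low over bright probe sets. Its median deviation from the mean of the group's other arrays was -0.43 over 14314 such probe sets. It lay below that mean for 10 of the 10 enzymes, so values that leaving it out changes most are also given without it.

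The start regions of a few members are shown because the data compare genes of a shared pathway that moved in different ways. RefSeq windows (GRCm38.p6) of 250 bases before the annotated start were matched for 6 of the 10 members, Acly, Acaca, Acacb, Fasn, Elovl6 and Scd3. The windows below are Elovl6, which fell with SRA overexpression, Scd3, which rose, and Fasn and Acacb, which did not pass. Capitals mark CCAAT, or ATTGG where it is on the other strand. The windows of Acly and Acaca, which did not pass with overexpression either, are not printed and held no CCAAT on either strand.
Elovl6 (chr3:129532136-129532385, + strand): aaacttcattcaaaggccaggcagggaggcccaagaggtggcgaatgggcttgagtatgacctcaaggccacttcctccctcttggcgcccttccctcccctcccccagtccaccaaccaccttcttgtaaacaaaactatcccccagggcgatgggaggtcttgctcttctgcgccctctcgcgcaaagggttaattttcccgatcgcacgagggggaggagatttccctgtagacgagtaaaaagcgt
Scd3 (chr19:44203038-44203287, + strand): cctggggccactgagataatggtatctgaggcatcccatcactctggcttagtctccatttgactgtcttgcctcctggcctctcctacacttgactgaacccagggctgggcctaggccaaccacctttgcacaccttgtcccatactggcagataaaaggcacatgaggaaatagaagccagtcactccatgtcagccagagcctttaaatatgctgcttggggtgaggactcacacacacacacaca
Fasn (chr11:120824548-120824797, - strand): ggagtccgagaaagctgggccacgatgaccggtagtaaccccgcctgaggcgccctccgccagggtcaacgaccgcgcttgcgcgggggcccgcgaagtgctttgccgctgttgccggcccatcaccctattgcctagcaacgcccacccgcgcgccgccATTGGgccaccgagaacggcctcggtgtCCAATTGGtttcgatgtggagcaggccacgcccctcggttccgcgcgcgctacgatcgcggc
Acacb (chr5:114165268-114165517, + strand): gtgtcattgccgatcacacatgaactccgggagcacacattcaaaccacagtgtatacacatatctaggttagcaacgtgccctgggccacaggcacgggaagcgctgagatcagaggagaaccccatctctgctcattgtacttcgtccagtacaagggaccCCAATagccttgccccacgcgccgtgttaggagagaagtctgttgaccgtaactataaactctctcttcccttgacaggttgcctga

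Both strands were searched for 3 motifs: the sterol regulatory element as TCACNCCAC, the E-box CACGTG and the NF-Y box CCAAT, which can share letters only at their ends. CCAAT was found in 2 of the 6 windows, Fasn and Acacb, while 33.8% of 32851 windows held it. In Fasn it began 90, 62 and 59 bases before the start, at -90, -62 and -59, and the last 2 share letters on opposite strands. In Acacb it began at -87. TCACNCCAC and CACGTG were in 0 of the 6 windows, against 1.05% and 6.02% of all windows. The Fasn window held 33 CpG and 69.2% G or C, the Elovl6 window 11 and 56.4%, the Acacb window 10 and 52.4%, and the Scd3 window 0 and 52.4%, beside medians of 6 and 52.4% over all windows. Scd3 lies next to its relatives: Scd3, Scd2, Scd4 and Scd1 are consecutive protein-coding genes on chromosome 19. Whether a probe set of one desaturase also reads another was not tested.

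**Figure D1:**
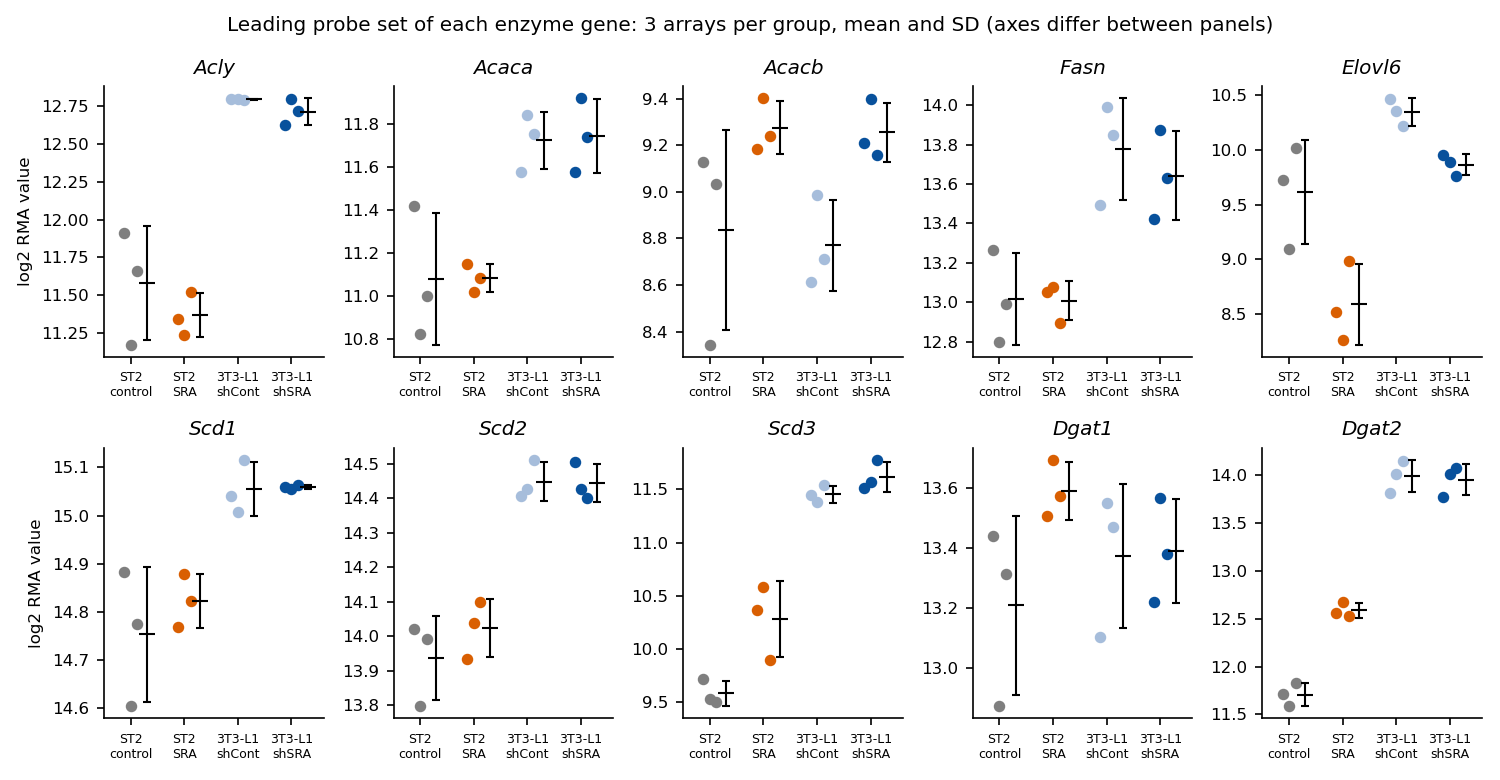
Log2 RMA value of the leading probe set of each enzyme gene in the 12 arrays. Points are arrays (replicates 1 to 3 from left to right within a group), the bar beside them is the mean and SD of 3 arrays, and the vertical axes differ between panels. Dgat2 and Scd3 sit in separate steps from ST2 control to ST2 SRA to 3T3-L1, Elovl6 is lower in ST2 SRA and shSRA than in its own control, and Acacb is higher in both.

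SRA overexpression was compared with the empty vector in ST2 adipocytes to ask which enzymes respond to more SRA. Dgat2 and Scd3 rose and Elovl6 fell, whereas the enzymes that make palmitate did not pass the test. Of the 10 leading probe sets, 2 were higher, 1 was lower and 7 did not pass, which includes Scd1, whose leading probe set was left out by the filter on low variance. Over all 19068 tested probe sets 2.33% were higher and 5.65% lower by limma's moderated test at an adjusted p of 0.05. Over all 19 tested probe sets of these genes, 5 were higher and 2 lower. The median log2 difference of the 10 leading probe sets was 0.08, beside 0.06 over all genes.

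Dgat2, an acyltransferase whose loss leaves mice severely short of triglyceride, read 11.71, 11.59 and 11.82 in the ST2 control arrays and 12.56, 12.68 and 12.53 in the ST2 SRA arrays. Every SRA array lay above every control array. The difference was 0.88 (SE 0.16, 1.84-fold, limma adjusted p = 0.000935), and it passed with each of the 12 arrays left out in turn (0.82 to 0.94). The other Dgat2 probe set, 1422677_at, read 11.30, 11.23 and 11.39 against 12.08, 12.16 and 12.23, a difference of 0.86 (limma adjusted p = 0.00116).

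Scd3, a desaturase first known from mouse skin, read 9.72, 9.53 and 9.50 in ST2 control and 10.37, 10.59 and 9.89 in ST2 SRA with its leading probe set. SRA replicate 3 was the lowest of its group and still above the controls. The difference was 0.70 (SE 0.18, 1.62-fold, limma adjusted p = 0.0154). It no longer passed without ST2 SRA replicate 1 (adjusted p = 0.0751), without ST2 SRA replicate 2 (0.144) or without ST2 control replicate 3 (0.0573). The second Scd3 probe set, 1423366_at, read 7.39, 6.85 and 6.95 against 8.53, 8.71 and 7.96. Its difference was 1.34 (SE 0.20, 2.53-fold, limma adjusted p = 0.000176) and passed with any 1 of the 12 arrays left out.

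Scd1, the main desaturase of adipocytes, and Scd2, its relative known from brain and other tissues, gave no call in the comparison in which Scd3 did. Scd1 read 14.88, 14.60 and 14.77 in ST2 control and 14.77, 14.88 and 14.82 in ST2 SRA, so the groups overlapped. The highest value of any probe set was 14.75 to 15.14 per array, so Scd1 lay near the top of the scale, and whether this limits its differences was not tested. Its second probe set, 1415965_at, which was tested, differed by 0.02 (95% interval -0.29 to 0.33, limma adjusted p = 0.960). The leading Scd2 probe set differed by 0.09 (95% interval -0.22 to 0.39, limma adjusted p = 0.760).

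Elovl6, the elongase of palmitate, moved against Dgat2 and Scd3. It read 9.73, 9.09 and 10.02 in ST2 control and 8.52, 8.26 and 8.99 in ST2 SRA, and the highest SRA array was below the lowest control. The difference was -1.02 (SE 0.21, limma adjusted p = 0.00386), which is 0.492 of the control level. It passed with each of the 12 arrays left out in turn (-1.28 to -0.82), and was largest without the low ST2 control replicate 2. Probe set 1417403_at read 8.82, 8.22 and 9.15 against 7.75, 7.42 and 8.34. There the groups overlapped at 1 array of each. The difference of -0.89 passed (limma adjusted p = 0.0209), though in only 8 of the 12 fits with an array left out. With no filter on variance it did not pass (limma adjusted p = 0.0578). The dimmer probe set 1442656_at differed by -0.37 (limma adjusted p = 0.263).

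Acly, Acaca and Fasn, which carry carbon from citrate to palmitate, gave no call. Fasn read 13.26, 12.80 and 12.99 in ST2 control and 13.05, 13.08 and 12.89 in ST2 SRA, a difference of -0.01 (95% interval -0.38 to 0.36, limma adjusted p = 0.980). Acaca, the cytosolic carboxylase, differed by 0.00 (95% interval -0.35 to 0.36). Acly read 11.91, 11.17 and 11.66 against 11.34, 11.24 and 11.52, a difference of -0.21 (limma adjusted p = 0.496). Without ST2 control replicate 2 the Acly difference became -0.42 and passed (limma adjusted p = 0.0433).

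Acacb and Dgat1 separated by group without passing. Acacb, the carboxylase of the mitochondrial surface known for holding back fatty acid oxidation, read 9.13, 8.34 and 9.03 in ST2 control and 9.18, 9.40 and 9.24 in ST2 SRA. The difference was 0.44 (SE 0.19, limma adjusted p = 0.178), and 0.19 without the low control array. Dgat1, the other acyltransferase, read 13.44, 12.88 and 13.31 against 13.51, 13.69 and 13.57, a difference of 0.38 (limma adjusted p = 0.216) and 0.21 without that array. Its other probe set, 1445229_at, read 8.59, 8.42 and 8.49 against 9.00, 9.24 and 9.14, and its difference of 0.62 passed (limma adjusted p = 0.0156). It did not pass without ST2 SRA replicate 2 (adjusted p = 0.108), without ST2 SRA replicate 3 (0.0581) or with the ST2 arrays alone (0.0774). With Acacb and Dgat1, 4 of the 10 leading probe sets had all SRA arrays above all controls and 1 had all below, whereas 15.2% and 9.03% of tested probe sets did so.

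**Figure D2:**
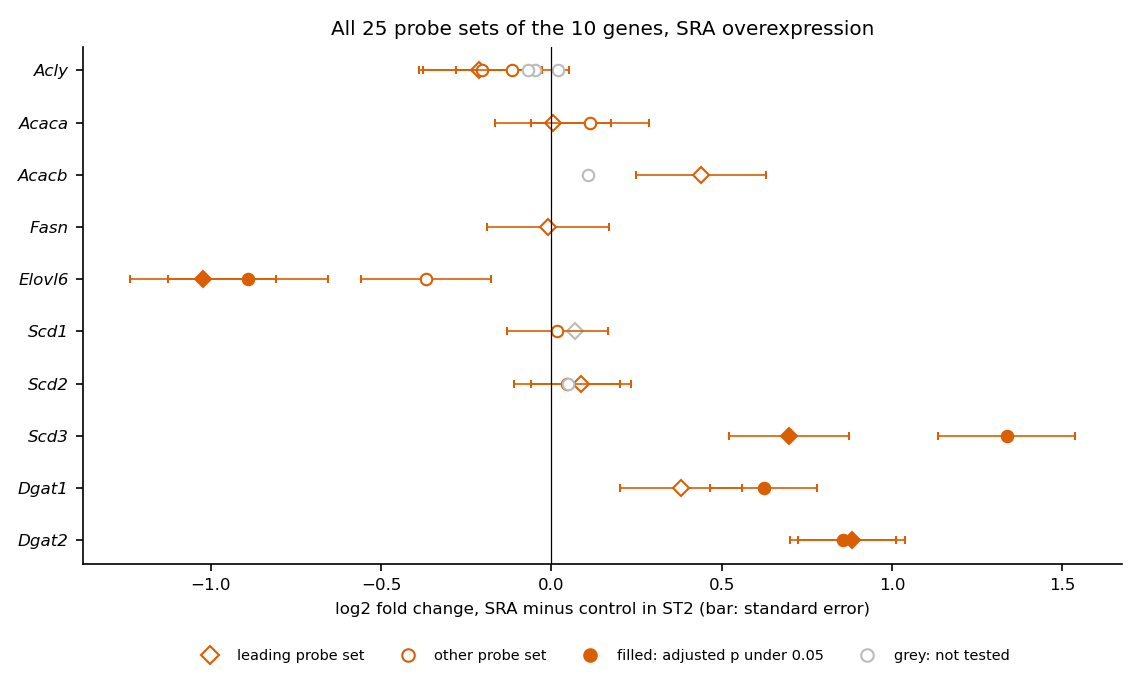
Log2 fold change with SRA overexpression (ST2 SRA minus ST2 control, horizontal axis) of all 25 probe sets of the 10 genes, with the standard error as a bar where the probe set was tested. Both probe sets of Dgat2 and of Scd3 are filled (adjusted p under 0.05) and lie above 0, and the 3 of Elovl6 lie below 0, 2 of them filled.

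Markers of cell state moved in the same comparison. Of 12 measured adipocyte markers 8 were tested. Of these 2 rose, the glucose transporter Slc2a4 by 1.08 (limma adjusted p = 0.000176) and the fatty acid carrier Cd36 by 0.86 (limma adjusted p = 0.00176), and none fell. Over all tested probe sets 2.33% were higher and 5.65% lower. The mean log2 value over the 12 was 11.93 to 12.38 in ST2 control and 12.49 to 12.60 in ST2 SRA arrays. Of 7 measured preadipocyte and fibroblast markers, all tested, 3 fell, Col3a1 by 1.95, Col1a1 by 1.47 and Pdgfra by 1.25. The other 4 did not pass: Dlk1 differed by 0.17, Thy1 by -0.02, Lum by -0.05 and Dcn by -0.20. The mean over the 7 was 8.31 to 8.43 in ST2 control against 7.54 to 7.85 in ST2 SRA. In these bulk samples fewer cells of a type and less RNA per cell cannot be told apart, and the part of these markers in the enzyme values was not tested. Over the 5 macrophage and blood cell markers the mean was 6.18 to 6.43 in ST2 control and 6.30 to 6.43 in ST2 SRA, and over the 4 endothelial markers 5.42 to 5.46 and 5.39 to 5.57. Ptprc, common to blood cells, had group means of 4.05 to 4.19, the endothelial marker Pecam1 5.14 to 5.38, the macrophage markers Csf1r 6.96 to 7.27 and Cd68 7.18 to 8.63. The variance filter left 2 of the 5 macrophage and blood cell markers to test, 0 of the 4 endothelial and 1 of the 3 measured osteoblast markers. None of those tested passed in either SRA comparison, and the others could not.

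Other genes of the pathway were read from 5 lists with 57 entries, of which 53 were measured and 43 tested. With SRA overexpression 4 rose and none fell, while 2.33% of all tested probe sets were higher and 5.65% lower. The median difference was 0.12, beside 0.06 over all genes. Fads3, a member of the fatty acid desaturase family, read 11.30 to 11.95 in ST2 control and 12.34 to 12.55 in ST2 SRA, a difference of 0.85 (limma adjusted p = 0.00443). Gpd1, which makes the glycerol phosphate backbone of triglyceride, rose by 0.80 (limma adjusted p = 0.0112). Srebf1, which encodes SREBP-1, read 10.63 to 11.19 against 11.64 to 11.71 and rose by 0.70 (limma adjusted p = 0.0190). Lpin1, the phosphatase that makes diacylglycerol, rose by 0.57 (limma adjusted p = 0.0305). With an array left out, Fads3 passed in 12 of 12 fits, Gpd1 in 11, Srebf1 in 9 and Lpin1 in 7. In the nested classification of the study's methods, taken over both SRA comparisons, Srebf1 and Lpin1 gave no call. Lpin1 also lost its call after a second quantile normalization (0.49) and with the ST2 arrays alone (limma adjusted p = 0.133). None of the 6 measured genes of acetyl-CoA, citrate and NADPH supply and none of the 7 modifiers and partners of the carboxylases and synthase passed.

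SRA knockdown was compared with the control hairpin in 3T3-L1 adipocytes to ask the reverse question. No leading probe set of the 10 genes and none of the 19 tested passed (limma adjusted p of 0.9998 for each leading probe set tested), and 1 leading probe set was higher and 1 lower at an unadjusted p of 0.05. Over all tested probe sets 0.0315% were higher and 0.042% lower, and 533 had an unadjusted p under 0.05. The nested classification over both SRA comparisons also gave 0 of the 10. The median log2 difference of the 10 was 0.00, beside -0.01 over all genes. None of the 43 tested genes of the other pathway lists passed either. Of the preadipocyte and fibroblast markers Lum, a matrix proteoglycan, fell by 1.57 (limma adjusted p = 0.0173), and that list's mean was 11.46 to 11.90 in shControl and 11.09 to 11.44 in shSRA.

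**Figure D3:**
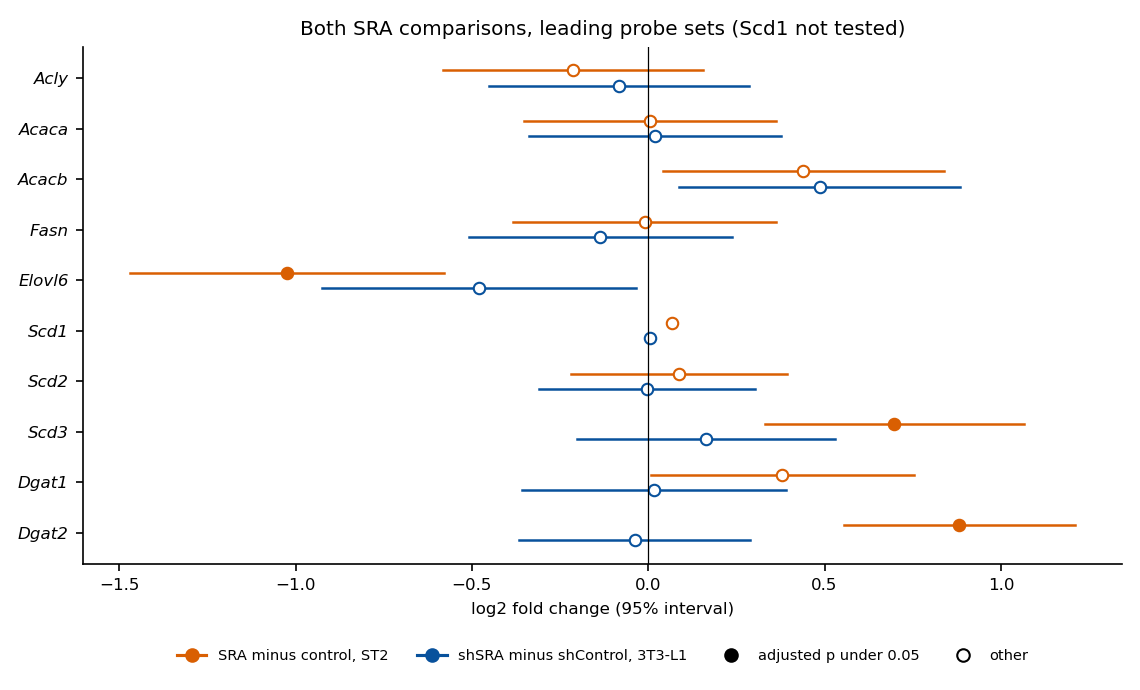
Log2 fold change (horizontal axis, with the 95% interval of the limma fit) of the leading probe sets for SRA overexpression in ST2 (orange) and SRA knockdown in 3T3-L1 adipocytes (blue). Filled points passed at an adjusted p of 0.05, which Elovl6, Scd3 and Dgat2 did with overexpression and none did with knockdown, and Scd1 has no interval because it was not tested.

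Elovl6 and Acacb were the leading probe sets whose knockdown arrays did not overlap the controls. Elovl6 read 10.46, 10.35 and 10.21 in shControl and 9.95, 9.89 and 9.76 in shSRA. The 3 differences by replicate number were -0.51, -0.47 and -0.46, with a mean of -0.48 (SE 0.21, unadjusted p = 0.0364 by limma). Acacb read 8.61, 8.99 and 8.71 in shControl and 9.21, 9.40 and 9.16 in shSRA. Its differences by replicate number were 0.60, 0.41 and 0.45, with a mean of 0.49 (SE 0.19, unadjusted p = 0.0193 by limma). Non-overlap was thus found for 1 of the 10 in each direction, and in 5.49% of tested probe sets upward and 4.69% downward. With more SRA in ST2 and with less SRA in 3T3-L1, the leading probe set of each gene had the same sign, down for Elovl6 and up for Acacb. Of these changes only the fall of Elovl6 in ST2 passed in the main fit. The Acacb difference in ST2 was 0.19 without ST2 control replicate 2. The other probe sets were not all alike under knockdown. Elovl6 1417403_at differed by -0.60, -0.15 and -0.27 by replicate number and 1442656_at by 0.07, -0.25 and 0.07. The dim Acacb probe set 1445754_at, which was not tested, differed by -0.25, -0.12 and -0.14, and by 0.11 on average with overexpression.

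Same-numbered 3T3-L1 arrays deviated together, so the replicate number was also fitted as a block. In fits that held the ST2 arrays it was a block there too, although those numbers were not taken as pairs. With the block, Elovl6 reached a limma adjusted p of 0.246 and Acacb of 0.369, and 0.325% of tested probe sets were higher and 0.205% lower. With the block and without the low ST2 control replicate 2, which enters the shared spread, Elovl6 (-0.48, adjusted p = 0.0383) and Acacb (0.49, adjusted p = 0.0394) both passed, beside 0.719% of 14741 probe sets higher and 0.699% lower. With the block and the 3T3-L1 arrays alone the limma adjusted p values were 0.0612 and 0.0662. These last 2 fits were chosen after the data were seen.

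**Figure D4:**
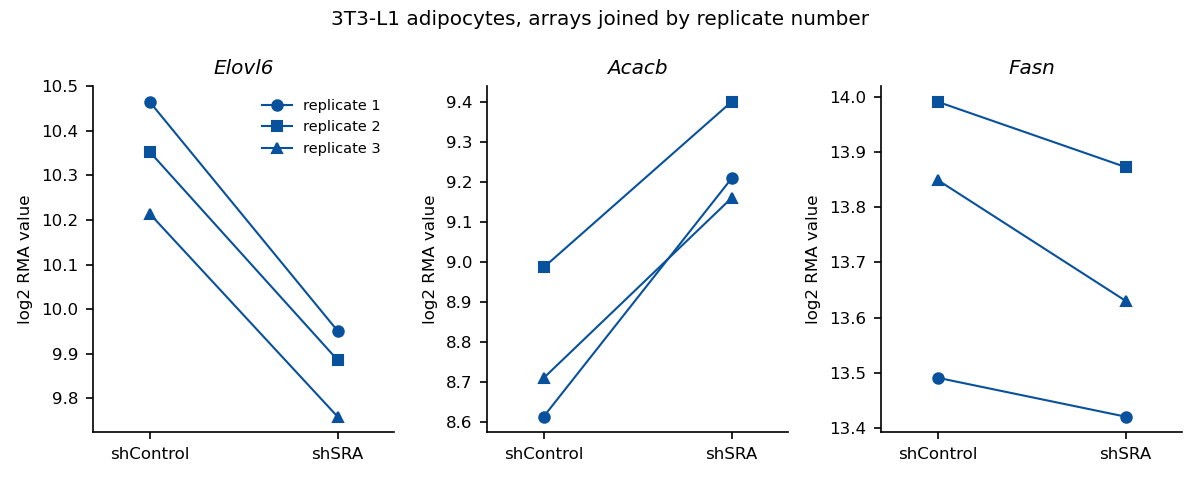
Log2 RMA values of Elovl6, Acacb and Fasn in the 3T3-L1 arrays, with shControl and shSRA arrays of the same replicate number joined by a line. All 3 lines fall for Elovl6 and for Fasn and rise for Acacb, with steps of -0.46 to -0.51 for Elovl6 and of -0.07 to -0.22 for Fasn.

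The other enzymes gave smaller differences under knockdown. Fasn read 13.49, 13.99 and 13.85 in shControl and 13.42, 13.87 and 13.63 in shSRA, with differences by replicate number of -0.07, -0.12 and -0.22. Scd3 differed by 0.07, 0.19 and 0.24. All 3 differences were above 0 in 19.3% and below 0 in 15.6% of tested probe sets. Dgat2 read 13.81, 14.01 and 14.14 in shControl and 13.77, 14.01 and 14.07 in shSRA, a mean difference of -0.04 (95% interval -0.37 to 0.29). Acly differed by -0.08, Acaca by 0.02, Scd1 by 0.00, Scd2 by 0.00 and Dgat1 by 0.02, and for each of these the groups overlapped.

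The control arrays of the 2 lines were set side by side to give the enzymes' starting levels. Of the leading probe sets, 7 were higher in shControl than in ST2 control and none was lower, while 37.4% of all tested probe sets were higher and 26.2% lower. Of the 19 tested probe sets 16 were higher. Dgat2 differed most, from a mean of 11.71 ± 0.12 (SD, n = 3) in ST2 control to 13.99 ± 0.17 (SD, n = 3) in shControl, 4.86-fold. Scd3 differed by 1.87 (3.65-fold), Acly by 1.21 (2.32-fold), Fasn by 0.76, Elovl6 by 0.73, Acaca by 0.64 and Scd2 by 0.51. The limma adjusted p of these 7 ran from 2.40e-10 for Dgat2 to 0.00628 for Elovl6. The Scd2 call was lost after a second quantile normalization (0.44), with arrays centred on bright probe sets (0.42) and with the control arrays alone (0.51, limma adjusted p = 0.0518). Acacb (-0.07, limma adjusted p = 0.761) and Dgat1 (0.16, limma adjusted p = 0.413) did not pass, though the other Dgat1 probe set, 1445229_at, did (0.88, limma adjusted p = 9.15e-05). Without ST2 control replicate 2 the difference became 0.47 for Elovl6 (limma adjusted p = 0.0328), -0.31 for Acacb (0.0553) and -0.0035 for Dgat1. Scd1, not tested with its leading probe set, differed by 0.30, and its tested probe set by 0.49 (limma adjusted p = 0.00786). Dgat2 and Scd3 thus had, in ST2 SRA arrays, means of 12.59 and 10.28 that lay between the ST2 control and the shControl means, while the Elovl6 mean of 8.59 lay below both. The 12 adipocyte markers had a mean of 13.01 to 13.15 in shControl arrays, and the 7 preadipocyte and fibroblast markers one of 11.46 to 11.90.

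The effect of SRA was then compared between the lines, as more SRA minus less SRA in each, although the 2 manipulations differ in kind. It differed for 2 of the 10 leading probe sets, and for 3.69% of all tested probe sets. For Elovl6 the effect was -1.02 in ST2 and 0.48 in 3T3-L1, a difference of -1.50 (SE 0.30, limma adjusted p = 0.00656). For Dgat2 it was 0.88 and 0.04, a difference of 0.84 (SE 0.22, limma adjusted p = 0.0364). Acacb (0.93, adjusted p = 0.0637) and the leading Scd3 probe set (0.86, adjusted p = 0.0584) did not pass in limma. With the replicate block 4 of the 10 did, as Acacb (limma adjusted p = 0.0101) and Scd3 (0.00946) were added. Over all 19068 tested probe sets the calls also rose with the block. They went from 147 to 613 above 0 and from 556 to 1111 below 0. That block also joins the ST2 arrays by number, which were not taken as pairs.

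The genes most like each responding enzyme over the 12 arrays were named by Pearson's r among 8189 other genes. The arrays share the large difference between the lines, so r also carries that step. For Elovl6 they were Tmsb10, an actin-binding thymosin (r = 0.98), Tmem165 (0.98) and the collagen gene Col5a2 (0.97). For Scd3 they were Slc2a4 (0.99), Myom1 (0.99) and Prxl2a (0.98), and for Dgat2 2010320M18Rik (0.99), Slc2a4 (0.99) and the clock gene Per3 (0.99). Among the members themselves Scd3 and Dgat2 had r = 0.98, Elovl6 had 0.47 with Scd3 and 0.52 with Dgat2, and Acacb had -0.33 with Elovl6 and 0.79 with Dgat1.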

How the data were processed

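Total RNA of 12 samples was hybridised by the authors to Affymetrix mouse 430 2.0 arrays. The deposited log2 values, 1 per probe set and array, were made by the authors with RMA, which corrects background, equalizes array distributions and summarizes probes, so equalization can hide a shift common to most genes. The submitters' notes name affy, RMA and limma. The build is not given in the sources used here. Intensities were not analysed here, so probe sets could not be called present or absent.

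From these values limma 3.58.1 (R 4.3.3) fitted 1 model of 4 groups to the 19068 of 45101 probe sets with a variance above 0.05 over all arrays, the filter and shared spread of the study's methods. Each comparison had a moderated two-sided test with Benjamini-Hochberg adjustment at 0.05 over all tested probe sets. The methods' nested classification over both comparisons was an alternative. Counts use leading probe sets, and SDs are over 3 arrays. The number of arrays limits the precision. The platform annotation gave 34958 probe sets 1 symbol, 932 several and 9211 none. RefSeq held the Entrez identifier of 34754 of the first kind, and 0 symbols differed from it.

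All members, every other pathway gene that passed in either SRA comparison (up to 4 a list) and the 3 genes most like each responding member were named. The members and lists were chosen with earlier results of these data known. Deviations of same-numbered arrays correlated at 0.59, 0.59 and 0.38 in 3T3-L1, which was taken as pairing, and at 0.04, 0.27 and 0.53 in ST2, which was not. The fits were tested on simulated data.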

Additional observations from a re-analysis of the deposited data

Results flagged for a closer look

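5 probe sets of 3 enzyme genes were listed here because the effect of SRA, as more minus less SRA, differed between the lines in limma's test of the difference itself. For Elovl6 the difference was -1.50 (adjusted p = 0.00656) with the leading probe set, which passed with each of the 12 arrays left out in turn, and -1.24 (adjusted p = 0.0419) with 1417403_at, which passed in 3 of 12. For Scd3 it was 1.53 (adjusted p = 0.00329) with 1423366_at, an effect of 1.34 in ST2 against -0.19 in 3T3-L1, and it passed in 12 of 12. For Dgat2 it was 0.84 (adjusted p = 0.0364) with the leading probe set and 0.87 (adjusted p = 0.0303) with 1422677_at, passing in 5 and 4 of 12. The lines also differ in harvest day, vector and kind of manipulation, which cannot be told apart from the line.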

How the results depend on the processing

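Alternatives changed the sign of 61 of 1374 single values of the enzymes and pathway genes, and of 0 that passed in the main analysis, and the largest value with such a change was 0.16. For SRA overexpression, the count of enzymes higher was 2. It became 1 with arrays centred on bright probe sets and 1 with the arrays of ST2 alone, where Scd3 did not pass (adjusted p = 0.0604 and 0.0572). Dgat1 was added with the probe set of highest variance (0.62, limma adjusted p = 0.0156) and with the mean over probe sets. With an array left out the count higher ranged from 1 to 2. The count lower was 1, became 2 with array weights, where Acly passed (-0.34, adjusted p = 0.0349), and ranged from 1 to 2 with an array left out. For knockdown both counts were 0 and stayed 0 in every alternative but that with the block and without ST2 control replicate 2, where they became 1 and 1. For the control lines the counts were 7 and 0 with any array left out. Scd2 lost its call after a second quantile normalization (0.44), with centring on bright probe sets (0.42) and with the control arrays alone (adjusted p = 0.0518), while Dgat1 (0.88) and Scd1 (0.49) passed with the probe set of highest variance, which gave 9 higher. For the same comparison 1 enzyme, Acacb (-0.37), was lower with the block and without that array. The count whose SRA effect differed between the lines was 2. It became 4 with the replicate block, 4 with array weights and 4 with the block and without ST2 control replicate 2. With an array left out it ranged from 1 to 4. Over all tested probe sets this difference was called above 0 for 147 and below 0 for 556 in the main fit. These became 613 and 1111 with the block and 747 and 1728 with array weights. Without ST2 control replicate 2 they were 234 and 1256 of 14741, and 558 and 1756 with the block as well. The Dgat2 difference between the lines did not pass after a second quantile normalization (0.74, adjusted p = 0.0509) or centring on bright probe sets (0.74, adjusted p = 0.0687). With the mean over probe sets Dgat1 rose in ST2 (0.50, adjusted p = 0.0279), and with no filter on variance Scd1 was higher in 3T3-L1 (0.30, adjusted p = 0.0367). Without that filter Elovl6 1417403_at lost its calls with overexpression (limma adjusted p = 0.0578) and between the lines (0.108). Dgat1 1445229_at then differed between the lines (0.76, limma adjusted p = 0.0438). Over all tested probe sets, 445 were higher and 1077 lower with overexpression, and 6 and 8 with knockdown. These became 206, 802, 46 and 44 with the nested classification, 1377, 1646, 62 and 39 with the replicate block, and 1239, 2699, 23 and 37 with array weights. With overexpression they became 984 and 846 when ST2 control replicate 1 was left out, and 351 and 1897 when it was replicate 2. With an ST2 SRA array left out they were 224 and 770 (replicate 1), 133 and 618 (replicate 2) and 191 and 939 (replicate 3). With knockdown they ranged from 1 to 8 and from 3 to 9 with an array left out. The replicate block changed no other count of enzymes. It was fitted in ST2 as well, where the numbers are only shared, not taken as pairs.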
